A study of Mus musculus with 6 samples.

Results

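Inmt, Enox2, Odf3l2 and Npr3 are 4 genes that were lower in quadriceps muscle lacking estrogen receptor α than in control muscle. They were picked from the 13628 genes tested because every knockout library lay below every control library, and all 4 were found in the deposited table of 48795 genes. The muscle came from male C57BL/6 mice aged 20 weeks. The knockout mice, called MERKO, carry a muscle-specific deletion of ERα (gene Esr1), and the controls are labelled wildtype. Each group has 3 libraries of whole quadriceps, and the driver of the deletion is not named in the labels. Whole muscle also contains vessels, nerve, fat and connective tissue, and in such bulk RNA fewer cells of a type and less RNA per cell cannot be told apart.

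The 4 genes belong to unrelated families. Inmt encodes indolethylamine N-methyltransferase, a cytosolic enzyme that moves a methyl group from S-adenosylmethionine to amines such as tryptamine, and that also methylates thioethers. Enox2 encodes a member of the ecto-NOX family, cell-surface proteins that oxidize NADH or hydroquinones and exchange protein disulfides and thiols. Odf3l2 is named for its likeness to a protein of the outer dense fibres, the stiff cables along the sperm tail, and its role in muscle is not established. Npr3 encodes the natriuretic peptide clearance receptor, which lacks the guanylyl cyclase of its relatives, takes natriuretic peptides into the cell for degradation and can couple to inhibitory G proteins.

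Library totals ran from 14935532 to 44282448 counts. Levels are given as CPM, which puts read counts on one library size by means of TMM factors that also correct for composition. The deleted gene was reduced: the 3 MERKO libraries had 6.75, 9.43 and 7.46 CPM of Esr1, the 3 controls 25.1, 34.1 and 31.1 CPM. The log2 fold change of Esr1 was -1.95 (SE 0.16, adjusted p = 0.0262 by the quasi-likelihood test of edgeR). Esr1 was the 1 gene that passed, 0.00734% of those tested. It no longer passed without MERKO 1, MERKO 2, control 2 or control 3 (adjusted p from 0.0576 to 0.109, edgeR), with a log2 fold change of -1.84 to -2.08. All 10 skeletal muscle markers were present in every library. The slow-fibre markers summed to 460 and 477 CPM in the libraries MERKO 1 and control 1, and to between 35.6 and 44.6 CPM in each of the rest. Tendon markers were higher in MERKO for 9 of 10 genes (median log2 fold change 2.21), with sums of 90.3 to 440.1 CPM against 33.7 to 91.4 CPM in control. Schwann cell markers were higher for 9 of 9 tested genes, with a median of 0.52 and sums of 40.9 to 64.3 CPM against 28.8 to 37.9 CPM. None of these markers passed (edgeR). An rRNA gene model held 6.19% to 32.4% of counts in MERKO and 0.0433% to 27.7% in control. The part of these differences in the levels below was not tested.

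The values that chose the 4 genes are given as a description and without a p-value, since a test of the same contrast would use them again. The SE and 95% intervals given below come from the same fit and take no account of this choice. They describe the spread of the fit and are not a test of the decrease. Choosing genes on the same values can also make their fold changes too large. In all, 968 genes, or 7.1% of those tested, were lower in every MERKO library than in every control library. Among these the median log2 fold change was -0.26. Ordered by size of change, Odf3l2 was at place 23, Npr3 at 27, Enox2 at 29 and Inmt at 34.

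Inmt (ENSMUSG00000003477.5) lies on chromosome 6 from 55170626 to 55175043 on the minus strand of GRCm38, and its merged exons cover 1600 bases. It stood at 18.8, 12.7 and 14.3 CPM in MERKO 1 to 3. In control 1 to 3 it stood at 29.4, 39.4 and 43.98 CPM. The lowest control library was 1.56 times the highest MERKO library, the widest gap of the 4 genes. With library totals alone the ratio was 1.38, and Enox2 had the widest gap at 1.58. Group means were 15.3 ± 3.17 CPM for MERKO and 37.6 ± 7.43 CPM for control (SD, n = 3 each). The fitted log2 fold change was -1.29 (SE 0.19, 95% interval -1.72 to -0.86), which places MERKO at 40.9% of control.

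The RefSeq promoter table holds 1 window for Inmt, and its bases upstream of both the RefSeq and the GENCODE start are shown because this is the gene with the widest gap under TMM. The stretch is chr6:55175044-55175240 of GRCm38.p6, minus strand, printed 5′ to 3′ with both matches to TATAAA in capitals.
Inmt upstream: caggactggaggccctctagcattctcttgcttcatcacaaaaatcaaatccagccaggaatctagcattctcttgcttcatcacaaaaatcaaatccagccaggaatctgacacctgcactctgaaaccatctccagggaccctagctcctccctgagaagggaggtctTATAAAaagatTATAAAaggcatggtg
A unit of 46 bases occurs in direct repeat in this stretch, over 95 bases in all. The nearer TATAAA ends 64 bases before the RefSeq start, and 13.6% of the 32851 promoters in the table hold this motif on either strand. The whole window of Inmt has no CpG.

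Enox2 (ENSMUSG00000031109.16) lies on chromosome X from 49009707 to 49288259 on the minus strand, with 4356 bases of merged exons. MERKO 1 to 3 held 7.30, 12.8 and 18.4 CPM. Control 1 to 3 held 24.996, 36.6 and 39.7 CPM. Within each group the library numbered 1 was the lowest and the library numbered 3 the highest, and the spread was wider than for Inmt in MERKO. Group means were 12.8 ± 5.57 CPM for MERKO and 33.8 ± 7.76 CPM for control (SD, n = 3 each), with a log2 fold change of -1.41 (SE 0.32, 95% interval -2.13 to -0.68) and MERKO at 37.7% of control. The model overlaps a pair of processed pseudogenes on the other strand, Gm15034 and Gm15036, which held 0 counts in 5 and 6 of the 6 libraries respectively.

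The upstream stretch of Enox2 is shown because its window alone among the 3 available holds a match to AGGTCA, the core that is repeated head to head in an estrogen response element. It is chrX:49288260-49288492 of GRCm38.p6, minus strand, 5′ to 3′, with the match, which reads on the other strand, in capitals.
Enox2 upstream: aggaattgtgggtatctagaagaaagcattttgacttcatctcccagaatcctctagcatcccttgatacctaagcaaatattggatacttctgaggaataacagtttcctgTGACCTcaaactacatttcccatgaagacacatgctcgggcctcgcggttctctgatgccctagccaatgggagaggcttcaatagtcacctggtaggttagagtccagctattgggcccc
This 6-letter core was found in 16.3% of all promoters in the table, so a match in 1 of 3 windows is a description and not a site. None of the 3 windows holds the full palindromic estrogen response element, found in 23 promoters or 0.07%, or the palindromic glucocorticoid response element, found in 3. The core AGGTCA overlaps the full estrogen element in its letters, and both strands were searched for every motif. The window of Npr3, on chromosome 15 from 11907322 to 11907621, holds none of these motifs and no TATAAA.

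Odf3l2 (ENSMUSG00000035963.8) lies on chromosome 10 from 79639526 to 79645738 on the minus strand, with 1248 bases of merged exons. It had 15.7, 17.0 and 33.6 CPM in MERKO 1 to 3. The controls had 54.8, 44.7 and 87.1 CPM. MERKO 3 and control 3 were the highest of their groups, and the closest pair was MERKO 3 and control 2, which was 1.33 times higher. The means were 22.1 ± 10.004 CPM and 62.2 ± 22.1 CPM (SD, n = 3 each), with a log2 fold change of -1.496 (SE 0.34, 95% interval -2.27 to -0.72) and MERKO at 35.5% of control.

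Npr3 (ENSMUSG00000022206.6) lies on chromosome 15 from 11839896 to 11907287 on the minus strand, with 9389 bases of merged exons. Its level was 6.05, 5.81 and 4.04 CPM in MERKO 1 to 3. In control 1 to 3 it was 7.35, 20.3 and 15.5 CPM. Control 1 lay close to the MERKO libraries, and control 2 and 3 lay far above them. The means were 5.30 ± 1.10 CPM and 14.4 ± 6.54 CPM (SD, n = 3 each), with a log2 fold change of -1.43 (SE 0.35, 95% interval -2.22 to -0.63) and MERKO at 37.2% of control.

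Of the 4 genes, Npr3 is the one nearest the edge of the rule. The counts behind its closest pair were 199 in MERKO 1 and 175 in control 1, and their exact 95% Poisson intervals, 5.24 to 6.95 CPM and 6.30 to 8.53 CPM, overlap. The intervals cover counting error only and leave out variation between libraries. Reads without molecular identifiers are not independent molecules, so the intervals can be too narrow even for counting error. For the closest pairs of Inmt, Enox2 and Odf3l2 the intervals do not overlap. These are the values that chose the genes, so the lack of overlap is not support for a decrease. Just outside the rule among the related genes was Pde3a, a phosphodiesterase named after its values were seen, at 6.87, 6.65 and 6.496 CPM in the knockouts against 6.85, 8.36 and 6.95 CPM in the controls, where MERKO 1 exceeds control 1.

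**Figure D1:**
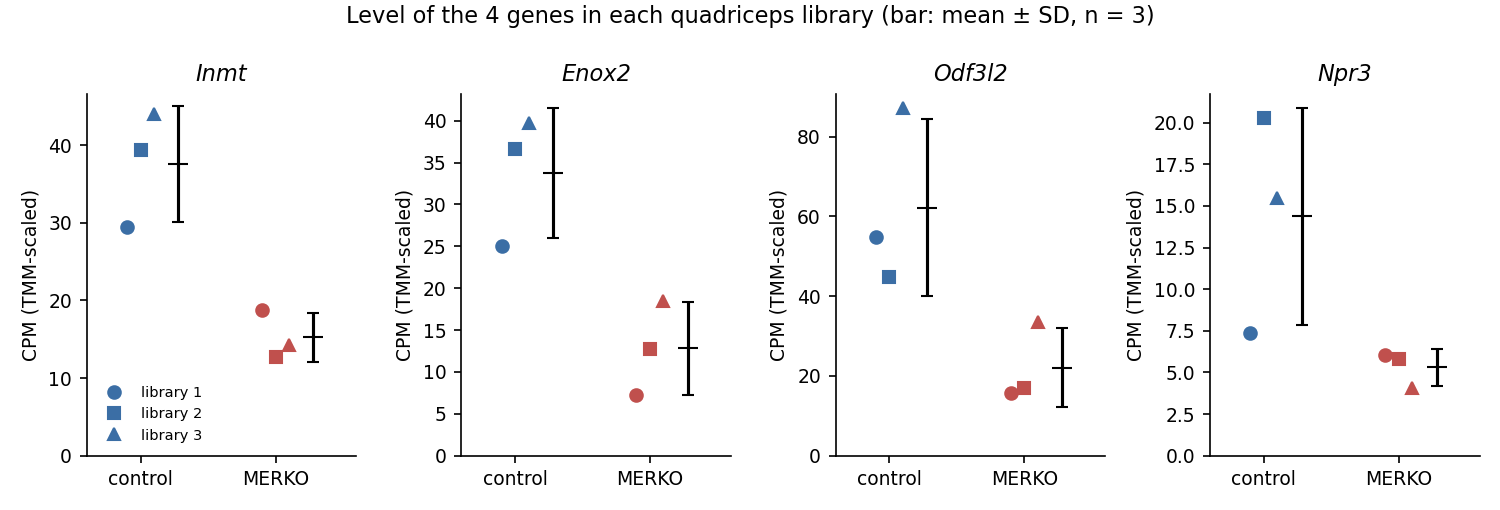
CPM of the 4 genes in each library (circle, square and triangle: libraries 1, 2 and 3 of a group; black bar: mean ± SD, n = 3), each axis starting at 0. In every panel the 3 MERKO libraries lie below the 3 control libraries, with the narrowest gap in Npr3, where control 1 is at 7.35 CPM and MERKO 1 at 6.05 CPM.

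Within MERKO the 4 genes did not all have the same order, while in control 1 and control 3 they moved to the same side of their means. In MERKO 1, Inmt and Npr3 were the highest of their group, at 0.32 and 0.21 above the group mean in log2 CPM, while Enox2 and Odf3l2 were at -0.71 and -0.40. In MERKO 3 the signs were turned, with Enox2 and Odf3l2 at 0.62 and 0.69 above the mean and Npr3 at -0.36. In control 1 all 4 were below their group means, from -0.13 for Odf3l2 to -0.84 for Npr3. Control 3 was above the mean for all 4, by 0.23 to 0.54.

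The profiles over the 6 libraries, each taken relative to its own mean, were closest for Inmt and Npr3 and for Enox2 and Odf3l2, with a mean absolute distance of 0.31 on the log2 scale in both pairs. They were farthest apart for Odf3l2 and Npr3, at 0.73. The spread within groups, as a pooled SD of log2 CPM, was 0.29 for Inmt, 0.54 for Enox2, 0.55 for Odf3l2 and 0.58 for Npr3. The median over all tested genes was 0.20, and 68.0%, 89.6%, 90.2% and 91.5% of genes varied less than Inmt, Enox2, Odf3l2 and Npr3.

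Levels of different genes were compared per kilobase of merged exon. In control muscle Odf3l2 was the most abundant, at 49.8 ± 17.7 CPM per kb (SD, n = 3), with libraries from 35.9 to 69.8. Inmt followed at 23.5 ± 4.64 CPM per kb, from 18.4 to 27.5. Enox2 stood at 7.75 ± 1.78 CPM per kb, from 5.74 to 9.12, and Npr3 at 1.53 ± 0.70 CPM per kb, from 0.78 to 2.16. Each neighbouring pair in this order had ranges that did not overlap within the control group.

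The control level of Odf3l2 per kb exceeded that of 96.8% of the 13601 tested genes with a known length, Inmt that of 93.4%, Enox2 that of 81.3% and Npr3 that of 44.1%. The median gene stood at 1.95 CPM per kb. In MERKO the order was the same, at 17.7 ± 8.02, 9.55 ± 1.98, 2.95 ± 1.28 and 0.56 ± 0.12 CPM per kb, again with no overlap between neighbours. The lowest Odf3l2 library in MERKO, at 12.6 CPM per kb, was next to the highest Inmt library there, at 11.8 CPM per kb.

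**Figure D2:**
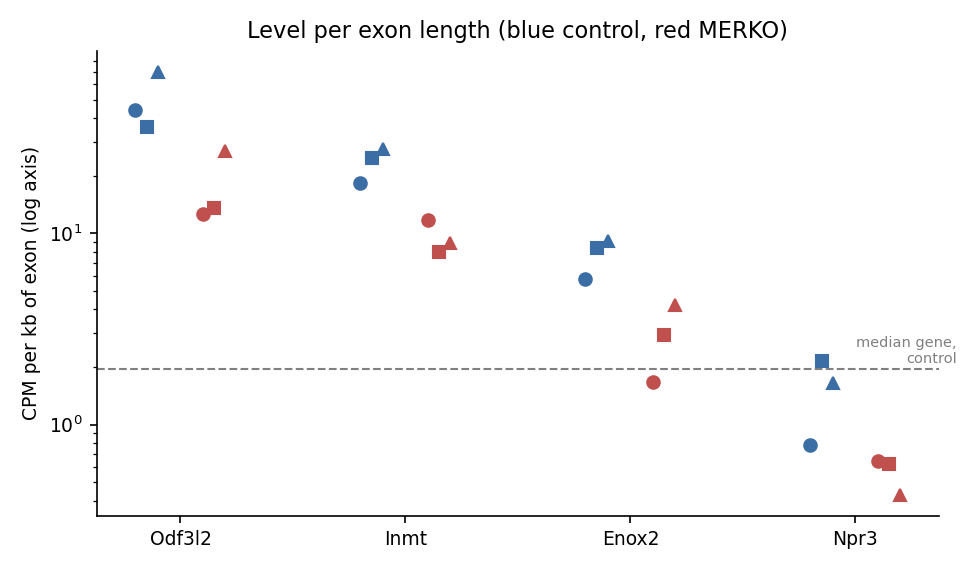
CPM per kilobase of merged exon on a log axis for the 4 genes in each library (blue control, red MERKO; circle, square and triangle: libraries 1, 2 and 3), with the median tested gene in control as a dashed line at 1.95. Odf3l2 and Inmt lie above the line in every library, and Npr3 lies below it in all but control 2.

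Leaving out a library shows how much each fold change rests on it. A negative sign is then fixed by the choice of genes whose groups do not overlap, so only the size is of interest. The log2 fold change of Inmt lay between -1.47 without MERKO 1 and -1.16 without control 3. That of Enox2 lay between -1.78 without MERKO 3 and -1.10 without MERKO 1. For Odf3l2 the values ran from -1.93 without MERKO 3 to -1.17 without control 3. For Npr3 they ran from -1.74 without control 1 to -1.11 without control 2, the library with its highest level.

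**Figure D3:**
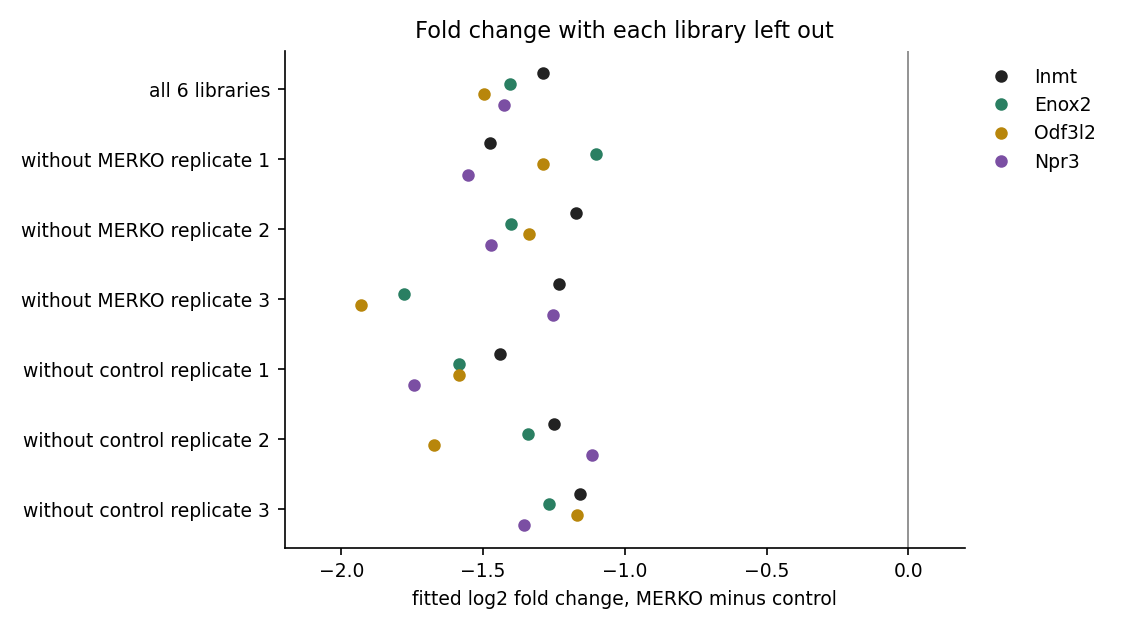
Fitted log2 fold change (MERKO minus control) of the 4 genes with all 6 libraries and with each library left out. Inmt moves least, between -1.47 and -1.16, and Odf3l2 most, between -1.93 and -1.17.

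The families and pathways around the 4 genes were read from the same fit, in 5 lists made by function. Of their 87 other genes, 55 passed the filter on low counts. None of the 55 passed the edgeR test over all genes, and 8, or 14.5%, had an unadjusted p under 0.05, beside 7.04% of all genes tested. DESeq2 and limma-voom also called 0 of them. There were 26 higher and 29 lower, and the median log2 fold change of -0.01 stood beside 0.01 over all genes tested. In 5 of the 55, or 9.09%, every MERKO library was below every control library, beside 7.1% of all genes. The lists were chosen with earlier results of these data known.

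The natriuretic peptide list follows Npr3 from its ligands to cyclic GMP. Nppa and Nppb, which encode the cardiac peptides ANP and BNP, had 0 and 1 counts in all libraries together. Nppc, which encodes the C-type peptide, reached at most 0.32 CPM and was not tested. Ostn encodes osteocrin, also called musclin, a peptide secreted by muscle that binds the Npr3 receptor. It stood at 3.92, 6.48 and 8.90 CPM in MERKO 1 to 3 against 8.95, 14.2 and 16.2 CPM in control 1 to 3. The groups touch at MERKO 3 and control 1, and the log2 fold change of -1.05 (SE 0.32) did not pass (adjusted p = 0.654, edgeR). Ostn did pass with the replicate number as a block (adjusted p = 0.0133, edgeR) and without a filter on low counts (adjusted p = 0.0175, edgeR), in a range up to 0.999 over 16 alternatives.

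The guanylyl cyclase receptors did not show the pattern of Npr3. Npr1, the receptor of ANP and BNP, stood at 12.1, 9.51 and 8.81 CPM in the knockouts against 9.75, 13.1 and 10.9 CPM in the controls (log2 fold change -0.13, SE 0.16, adjusted p = 0.871, edgeR), and its groups overlapped. Npr2, the receptor of the C-type peptide, stood at 33.7, 26.4 and 25.3 CPM in the knockouts against 24.8, 22.5 and 18.5 CPM in the controls. Every MERKO library was above every control library, as in 6.17% of all genes, and the log2 fold change of 0.38 (SE 0.15) did not pass (adjusted p = 0.683, edgeR). Per kilobase of exon, Npr2 stood at 4.70 ± 0.68, Npr1 at 2.35 ± 0.36 and Npr3 at 1.53 ± 0.70 CPM per kb in control (SD, n = 3 each), and the ranges of Npr1 and Npr3 overlapped.

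Pde3b, a phosphodiesterase that breaks down cyclic nucleotides and is abundant in fat cells, stood at 2.92, 3.62 and 3.85 CPM in MERKO. In control 1 to 3 it stood at 4.495, 14.1 and 5.59 CPM, so that control 2 alone was far above the rest. Its log2 fold change of -1.18 (SE 0.41, adjusted p = 0.68, edgeR) became -0.55 without control 2. Without a filter on low counts Pde3b passed (adjusted p = 0.0394, edgeR), in a range up to 0.999 over 16 alternatives. Of the 18 tested genes of this list other than Npr3, 7 were higher, 11 lower and 0 passed, with 5 at an unadjusted p under 0.05 and a median log2 fold change of -0.09.

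Markers of fat cells were also lower in the MERKO group. Of 10 adipocyte markers, 9 were lower in MERKO and 1 higher, the median log2 fold change was -2.14, and 0 passed the edgeR test. Adipoq, the fat-cell hormone adiponectin, stood at 2.16, 4.88 and 6.88 CPM in MERKO 1 to 3 against 4.83, 36.7 and 16.9 CPM in control 1 to 3. Npr3 and Adipoq had the same order over the controls, with control 2 highest and control 1 lowest. Adipoq overlapped between the groups, with control 1 below MERKO 2 and MERKO 3. In 5 of the 10 adipocyte markers, Lep, Retn, Plin1, Cfd and Pck1, every MERKO library was below every control library, as in Npr3, beside 7.1% of all genes. Within MERKO the order was opposite, since Npr3 was lowest and Adipoq highest in MERKO 3. The summed level of the list ran from 262 to 657 CPM in MERKO and from 342 to 729 CPM in control, most of it from Lpl and Fabp4, and no marker was at 0 in any library. The part of fat cells in the level of Npr3 was not tested.

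The list around Inmt holds small-molecule methyltransferases and enzymes of indolamines, in which 6 of 14 tested genes were higher, 8 lower and 0 passed (edgeR, 2 at an unadjusted p under 0.05, median log2 fold change -0.08). Maob, the monoamine oxidase B of the outer mitochondrial membrane, had the lowest p. It stood at 17.6, 17.8 and 19.1 CPM in the knockouts against 23.0, 25.2 and 24.5 CPM in the controls, with tight groups that did not overlap. Its log2 fold change was -0.41 (SE 0.09, adjusted p = 0.631, edgeR).

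Hnmt, which inactivates histamine by methylation, was at 4.35, 3.79 and 4.81 CPM in the knockouts against 4.999, 4.81 and 6.19 CPM in the controls (log2 fold change -0.31, SE 0.17, adjusted p = 0.713, edgeR), where MERKO 3 and control 2 differ in the third digit after the point. Nnmt, which methylates nicotinamide and is a relative of Inmt, stood at 0.73, 0.76 and 1.06 CPM in the knockouts against 0.97, 3.31 and 1.65 CPM in the controls. It had a log2 fold change of -1.15 (SE 0.46, adjusted p = 0.683, edgeR) that was -0.59 without both libraries numbered 2. Pnmt, the relative that makes adrenaline, was between 0.17 and 1.13 CPM in every library (log2 fold change 0.24, SE 0.52). Tph1, which makes the precursor of serotonin, ranged from 0.47 to 1.94 CPM with overlapping groups, and its log2 fold change was 0.28 (SE 0.47, adjusted p = 0.905, edgeR). Tph2, which carries out the same step, and Ddc, which makes tryptamine, had too few counts to be tested.

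The methionine cycle supplies the methyl donor that Inmt uses. Of its 8 tested genes 5 were higher and 3 lower with 0 passing (edgeR, 1 at an unadjusted p under 0.05), and the median log2 fold change was 0.01. Mtr, methionine synthase, stood at 20.6, 24.2 and 24.0 CPM in the knockouts against 19.4, 18.9 and 17.6 CPM in the controls (log2 fold change 0.30, SE 0.10, adjusted p = 0.68, edgeR). Ahcyl1, a relative of the hydrolase that clears the methylation by-product, had a log2 fold change of 0.13 (SE 0.08). For the hydrolase Ahcy itself it was -0.25 (SE 0.17), with overlapping groups.

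Enox1, the family relative of Enox2, was at 0.073 ± 0.011 CPM per kb in control, where Enox2 was at 7.75 (SD, n = 3). Enox1 stood at 0.97, 1.01 and 0.67 CPM in the knockouts against 0.50, 0.55 and 0.68 CPM in the controls (log2 fold change 0.57, SE 0.33, adjusted p = 0.715, edgeR), with MERKO 3 and control 3 overlapping. Of the 12 tested oxidoreductases other than Enox2, 7 were higher, 5 lower and 0 passed (edgeR, also 0 at an unadjusted p under 0.05). Cyb5r4, a cytochrome b5 reductase, was lower in every MERKO library by a small amount (log2 fold change -0.13, SE 0.08). Duox1, a hydrogen peroxide-producing oxidase, was under 1.2 CPM in every library.

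In each group Enox2 was lowest in the library with the most slow-fibre transcripts. Myh7, which encodes the myosin of slow fibres, reached 160 CPM in MERKO 1 and 185 CPM in control 1, where Enox2 was at 7.30 and 24.996 CPM. Elsewhere Myh7 ranged from 1.77 to 8.07 CPM, and in each group Myh7 and Enox2 were both higher in library 3 than in library 2. Control 1 was also the lowest control for Inmt and Npr3. Without both libraries numbered 1 the log2 fold change of Enox2 was -1.27. The part of fibre type in the spread of Enox2 was not tested.

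**Figure D4:**
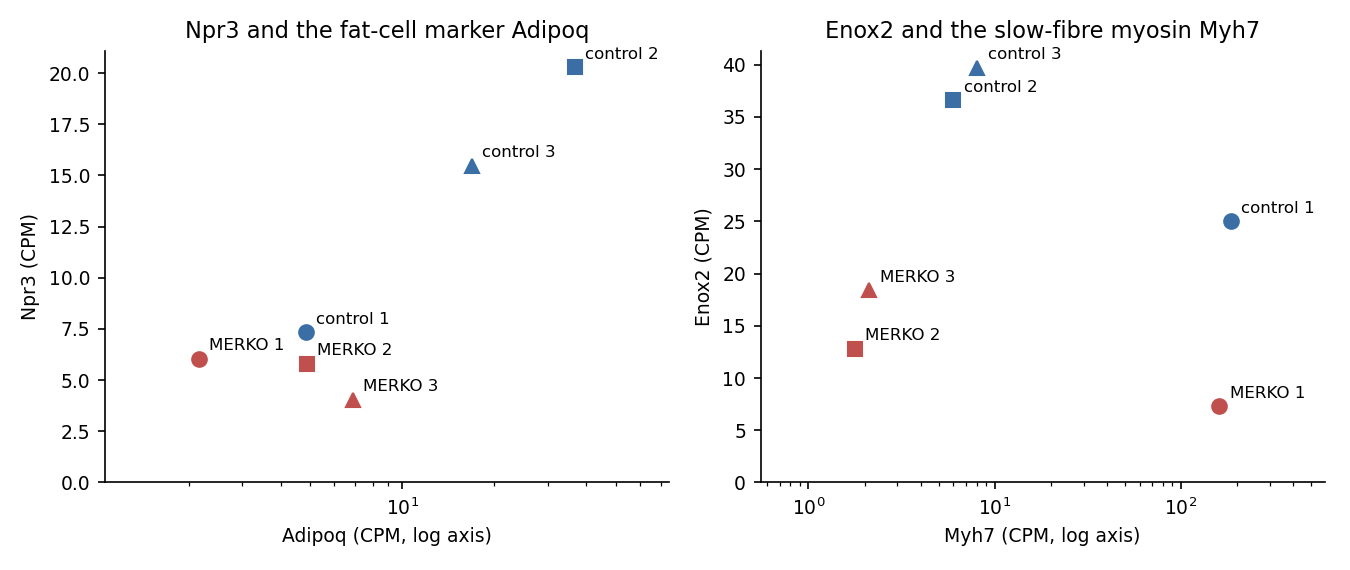
CPM of Npr3 against the fat-cell marker Adipoq and of Enox2 against the slow myosin Myh7 in each library (blue control, red MERKO; marker expression on a log axis). Control 2 and control 3 are high in both Npr3 and Adipoq, and the libraries numbered 1 have Myh7 of 160 and 185 CPM with the lowest Enox2 of their groups.

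Of the 17 genes besides Odf3l2 on the outer dense fibre and sperm tail list, 14 had too few counts to be tested. Odf3, Odf3b and Odf3l1, which share the family name, reached at most 0.044, 0.31 and 0.18 CPM per kb in any library, whereas Odf3l2 was at 12.6 CPM per kb or more. Most of the highest values of the 14 came from MERKO 1. The 3 tested genes were detected in every library, Odf2 at 14.9 to 21.1 CPM. They were Odf2 (log2 fold change 0.24, SE 0.13), Odf2l (-0.03, SE 0.13) and Tekt1 (-0.29, SE 0.26), in all of which the groups overlapped and none passed (edgeR). Odf2 and Odf2l encode proteins of the centriole as well as of the sperm tail.

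**Figure D5:**
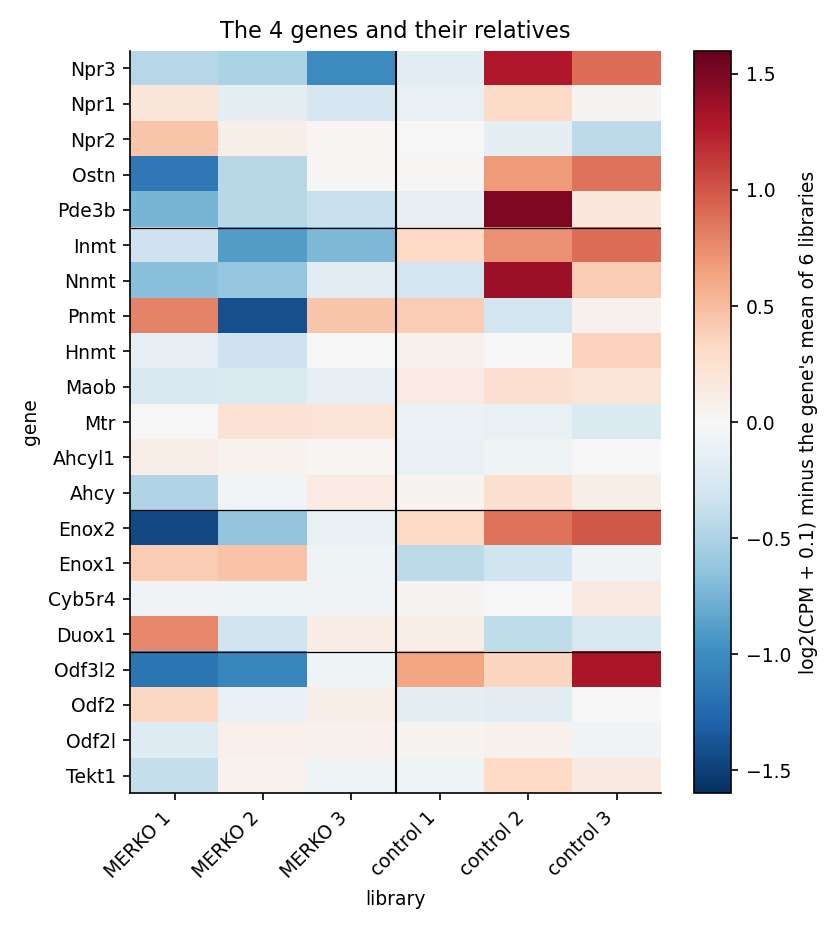
Log2(CPM + 0.1) of the 4 genes and their named relatives in each library, relative to the mean of the gene over the 6 libraries (red above, blue below). Npr3, Inmt, Enox2 and Odf3l2 are lower in all MERKO columns than in any control column. So are Maob, Pde3b, Cyb5r4, Ostn and Hnmt. Their lowest control library was from 1.20 (Maob) down to 1.0003 (Hnmt) times the highest MERKO library, beside 1.21 for Npr3. Npr2, Mtr and Ahcyl1 are higher in all MERKO columns than in any control column.

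The nearest protein-coding genes on the chromosome did not share the pattern. Crhr2 and Mindy4 lie 37609 and 28339 bases from Inmt, with log2 fold changes of 0.33 (SE 0.15) and 0.12 (SE 0.22). Shc2, a signalling adaptor gene, lies 1607 bases from Odf3l2 on the same strand, and was at 6.08, 10.1 and 9.62 CPM in the knockouts against 7.90, 11.7 and 11.1 CPM in the controls (log2 fold change -0.27, SE 0.23, adjusted p = 0.81, edgeR). Tars and Sub1 on either side of Npr3 had log2 fold changes of 0.02 (SE 0.12) and -0.35 (SE 0.17). The groups overlapped in all 5 of these genes, and none passed. The neighbours of Enox2 and the other neighbour of Odf3l2 had too few counts to be tested.

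The genes with the most similar profile were sought among 11392 genes, by the mean absolute distance in log2 CPM over the 6 libraries. For Inmt they were Pla2g5, a secreted phospholipase, at 0.17, Mmp9, a matrix protease, at 0.19, and Tmem267 at 0.20. Mmp9 stood at 1.73, 1.94 and 1.49 CPM in the knockouts against 2.77, 3.95 and 4.15 CPM in the controls, with control 1 lowest of the controls as for Inmt. Mmp9 is on the list of 8 neutrophil and mast cell markers, of which all 5 tested were lower (median -0.62, 0 passing). Of these 5, Mmp9 was the 1 gene with every MERKO library below every control library. S100a8, S100a9 and Cxcr2 had too few counts to be tested and reached at most 0.19 CPM. The MERKO mean was lower than the control mean for S100a8 and higher for S100a9 and Cxcr2. That list summed to between 7.58 and 13.2 CPM in MERKO and between 11.2 and 21.6 CPM in control, and its part in the level of Inmt was not tested.

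For Enox2 the most similar profiles were those of Hoxd8, a homeobox gene, at 0.17, Ostn at 0.20 and Ctxn3, a cortexin, at 0.22. Hoxd8 stood at 4.65, 9.01 and 12.8 CPM in the knockouts against 12.3, 21.3 and 30.6 CPM in the controls, with the same order within each group as Enox2 but with MERKO 3 above control 1. Ostn had that order too. For Odf3l2 the nearest included Hist1h4n at 0.25 and Car3, a carbonic anhydrase of muscle and fat, at 0.28. Car3 stood at 284, 285 and 799 CPM in the knockouts against 952, 1237 and 1263 CPM in the controls, so that MERKO 3 was the highest of its group as for Odf3l2.

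Npr3 was most like Tenm4, a teneurin, at 0.16, Adora1, the adenosine A1 receptor, at 0.17, and Heph, the copper oxidase hephaestin, at 0.22. Adora1 stood at 0.55, 0.84 and 0.43 CPM in the knockouts against 0.71, 2.29 and 1.53 CPM in the controls. All 3 were highest in control 2 and lowest among the controls in control 1. These likenesses were found by searching and share the libraries and the scaling.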

How the data were processed

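The authors deposited raw read counts per gene, with versioned Ensembl identifiers and 1 column per library. Per the submitters' processing notes, STAR 2.5.2b, HTSeq 0.9.1 and DESeq were used with mm10 and GRCm38. Strand setting, annotation release and handling of multiply placed reads: not given in the sources used here, so reads of overlapping genes on opposite strands cannot be told apart. Per the labels' protocols, RNA was extracted with Trizol and libraries made with the TruSeq kit. The labels do not say whether libraries come from separate animals, so p-values reflect only the variation among these libraries, which may be technical.

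Groups and numbers come from sample titles. Of the identifiers, 48349 matched GENCODE M21 (GRCm38) without version and 446 did not, and promoters come from RefSeq (GRCm38.p6, 3 of the 4 genes). Counts were fitted with edgeR 4.0.16 in R 4.3.3 (quasi-likelihood, filterByExpr, TMM, genotype as the sole term), with Benjamini-Hochberg p-values over 13628 genes and a threshold of 0.05. Log2 CPM used a prior count of 2. The code was tested on simulated data. Alternatives were DESeq2 1.42.0, limma-voom 3.58.1, other scalings and filters, a replicate block and left-out libraries. The 4 genes and the lists were chosen with earlier results of these data known.

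Named beside them are Esr1, 12 relatives, the 3 lowest p-values per list, the 3 most similar profiles per gene (average log2 CPM of at least 0, no Gm or Rik names), the nearest protein-coding neighbours and defining markers. One similar profile is not reported here. Proteins were not compared here.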

Additional observations from a re-analysis of the deposited data

How the results depend on the processing

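The log2 fold changes of Inmt, Enox2, Odf3l2 and Npr3 stayed below 0 in all 16 alternatives. These genes were chosen for groups that do not overlap, so neither this sign nor the lack of overlap below is a test of the decrease. Each value stayed within 1 SD of the replicates of its own gene, except Inmt without both libraries numbered 1 (-1.62). That setting was chosen after the data were seen, and in it Npr3 moved farther, from -1.43 to -1.87. The SD was 0.29 for Inmt and 0.58 for Npr3. With left-out single libraries the log2 fold changes ranged from -1.47 to -1.16 for Inmt, from -1.78 to -1.10 for Enox2, from -1.93 to -1.17 for Odf3l2 and from -1.74 to -1.11 for Npr3. All 4 genes kept groups without overlap under RLE factors, library totals alone and totals without rRNA and mitochondrial genes, also chosen after the data were seen, but with library totals alone the gap of Npr3 shrank from 1.21 to 1.07 and that of Inmt from 1.56 to 1.38, while that of Enox2 grew from 1.36 to 1.58. That scaling moved the median log2 fold change of all genes from 0.01 to -0.10. The order by level was the same without division by length and without any 1 control. The 1 gene called over all genes became 23 with DESeq2, 93 without a composition factor (44 higher, 49 lower), 140 without a filter, 51 with the replicate block, 7 without both libraries numbered 1, and 0 to 11 when single libraries were left out (0 without MERKO 1 or MERKO 2, 11 without MERKO 3, 2 without control 1 or control 3, and 1 higher gene without control 2). Esr1 was called in 11 of its 16 alternatives and lost without MERKO 1, MERKO 2, control 2, control 3 or both libraries numbered 2 (adjusted p = 0.242, edgeR, in a range from 8.6e-21). The 0 related genes called became 4 without a filter (Ostn, Pde3b, Akap4 and Odf1) and 1 with the replicate block (Ostn, adjusted p = 0.0133, edgeR, in a range to 0.999 over its 16 alternatives). Without a filter 140 of 25904 genes were called in all. There Ostn and Pde3b were lower in MERKO, while Akap4 and Odf1 were higher, with log2 fold changes of 6.05 and 7.30. Of the 94 counts of Akap4, 91 were in MERKO 1, as were 61 of the 63 counts of Odf1. Akap4 and Odf1 were named after their values were seen. The cause was not tested. Same-numbered libraries deviated together with correlations across genes of 0.45, 0.16 and 0.06, so the numbers were not taken to pair the libraries. Even so, MERKO 1 and control 1 were alike. MERKO 2 and control 2 shared a high rRNA share (32.4% and 27.7%) and a low share of mitochondrial genes (4.9% and 6.68%). A chi-square between counts, which grows with depth, was the smallest of all pairs for MERKO 2 and control 2 (28.5 per degree of freedom). It was 66.4 for the pair numbered 1 and 677 for the pair numbered 3. Not every library correlated best with its own number. Counts of 69 to 257 limit Npr3 in all libraries but control 3.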

Other observations

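The 14 genes of the outer dense fibre and sperm tail list with too few counts to be tested had 239 counts in MERKO 1, all 14 of them with at least 1 count, and between 9 and 35 counts in each other library. Of the 14 genes, 10 were highest in MERKO 1. Akap4, a scaffold protein of the sperm tail, was at 2.77 CPM in MERKO 1 and at most 0.096 CPM elsewhere. Transcripts of the proteins that pack sperm DNA were then looked up, after these values were seen. Prm2 had 156 counts in MERKO 1, 13 in MERKO 3 and 0 in the other 4 libraries, and Tnp2 had 102, 7 and 2 counts in MERKO 1, MERKO 3 and control 3. Odf3l2 was at 15.7, 17.0 and 33.6 CPM in MERKO 1, MERKO 2 and MERKO 3. It was thus lowest in MERKO 1 and highest of its group in MERKO 3. The source of these sperm transcripts, and its part in the level of Odf3l2, was not tested.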
